A study of Bos taurus with 31 samples.

Results

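Blood clotting and clot removal rest on a set of plasma proteins, most of which the liver makes. Transcripts of these proteins were followed in liver biopsies of dairy cows on 4 diets. The members are 34 genes listed by symbol: clotting factors, fibrinogen chains, natural anticoagulants, and the proteases, receptors and inhibitors of fibrinolysis. A row of the raw count table was taken as a member when its gene symbol was on the list. This gave 33 rows among 24616 genes, and *TFPI*, the remaining symbol on the list, matched no row and was not analysed here. All 33 passed the filter on low counts (20 reads in sum over the cows), which left 15916 genes for testing.

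In clotting, a cascade of zymogens ends in thrombin, which cuts fibrinogen into fibrin, and factor XIII then cross-links the fibrin strands. The cascade can start from tissue factor (*F3*) with factor VII, or from the contact system of factor XII, plasma prekallikrein (*KLKB1*) and kininogen (*KNG1*). It is held in check by antithrombin (*SERPINC1*), heparin cofactor II (*SERPIND1*) and the protein C pathway (*PROC*, *PROS1*, *THBD*). Plasmin, made from plasminogen by urokinase (*PLAU*) or tissue plasminogen activator (*PLAT*), dissolves fibrin. Hepatocytes secrete most of these proteins, fibrinogen among them as an acute-phase protein, whereas von Willebrand factor and thrombomodulin are known as endothelial products.

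The question behind the design was whether glyphosate (GLY) residues in feed act on the liver, and whether the concentrate feed proportion (CFP) alters such an effect. Lactating German Holstein cows received either a control ration (CON groups) or a ration with ingredients that carried residues of a GLY herbicide formulation (GLY groups), each with a high CFP of 60% of dry matter (HC) or a low CFP of 30% (LC). Liver was sampled in week 16. RNA-seq counts were held for 31 cows, 1 library per cow, of which 8 were in CONHC, 8 in CONLC, 8 in GLYHC and 7 in GLYLC. GLY was given as a contaminated mixed ration eaten ad libitum and not as the pure substance, and CFP changed the forage part of the ration together with the concentrate. The p-values measure the spread between cows.

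Library depth ran from 11675775 to 36675542 assigned reads, and the members took between 5.7% and 14.2% of them in each cow. All 8 hepatocyte markers had reads in every group, and of 6 platelet markers 5 had a median under 10 reads, with *GP1BB* without a read. GLYLC cow 912 stood apart. Its summed hepatocyte markers were the lowest of all cows at 1312835 normalized counts, its summed intestinal epithelium markers reached 7802 against at most 2149 in any other cow, and its summed lymphocyte markers were the highest at 3624. Of the 33 members, this cow had the lowest value of all cows for 8 and the highest for 5. CONLC cow 103 had the highest sum of stellate cell or fibroblast markers, 47051 normalized counts against at most 7993 elsewhere. In bulk tissue, fewer cells of a type and less RNA per cell cannot be told apart.

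Values are normalized counts, that is, reads scaled by edgeR's TMM factors to the mean effective library size. Differences are log2 fold changes from an edgeR quasi-likelihood fit of all tested genes in all 31 cows, given with their standard error. Gene length was not available, so levels are compared between cows and never between genes. Called here means that p was under 0.05 and that the Benjamini-Hochberg (BH) adjusted p, over all tested genes, was under 0.1.

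No member was called by edgeR in CONHC versus CONLC, where 0% of all tested genes were called, and none in GLYHC versus GLYLC, where 0.201% were called. By DESeq2 on only the groups compared, 2 members were called in CON cows (*KLKB1* and *A2M*, with 0.539% of all tested genes) and 1 in GLY cows (*PLAU*, with 0.57%). At an unadjusted edgeR p under 0.05 stood 3 of 33 members in CON cows (9.09%, against 5.96% of all genes) and 8 of 33 in GLY cows (24.2%, against 12.5% of all genes). In CON cows these were *KLKB1*, *PROS1* and *A2M*, all with positive log2 fold changes, as had 2.71% of all genes at this p. In GLY cows *KLKB1*, *PLAU* and *PLAUR* had positive and *FGA*, *FGB*, *FGG*, *F13B* and *PLAT* negative log2 fold changes, beside 5.06% and 7.45% of all genes. As *FGA*, *FGB* and *FGG* varied together over cows (Pearson's r of 0.90 to 0.95), these 8 members are not independent. *KLKB1* was the one gene in both sets. *A2M*, *KLKB1* and *PROS1* stayed in the CON set in each of the 31 fits that left out 1 cow, and *FGA*, *FGB*, *FGG*, *F13B*, *PLAU* and *PLAUR* stayed in the GLY set. Without GLYLC cow 912 the set of GLY cows held 7 members (21.2%, against 8.37% of all genes) and no longer held *KLKB1*.

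Over all 33 members the median log2 fold change was 0.05 in CON cows and 0.06 in GLY cows, beside -0.01 over all genes in both. It ranged from -0.43 (*VWF*) to 0.80 (*A2M*) in CON cows and from -0.66 (*FGG*) to 1.21 (*PLAUR*) in GLY cows. The fibrin group had a median of 0.17 in CON cows and -0.51 in GLY cows. In no member did the HC and LC cows fall into ranges without overlap, neither in CON cows (0.0188% of all genes did) nor in GLY cows (0.0942%).

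**Figure D1:**
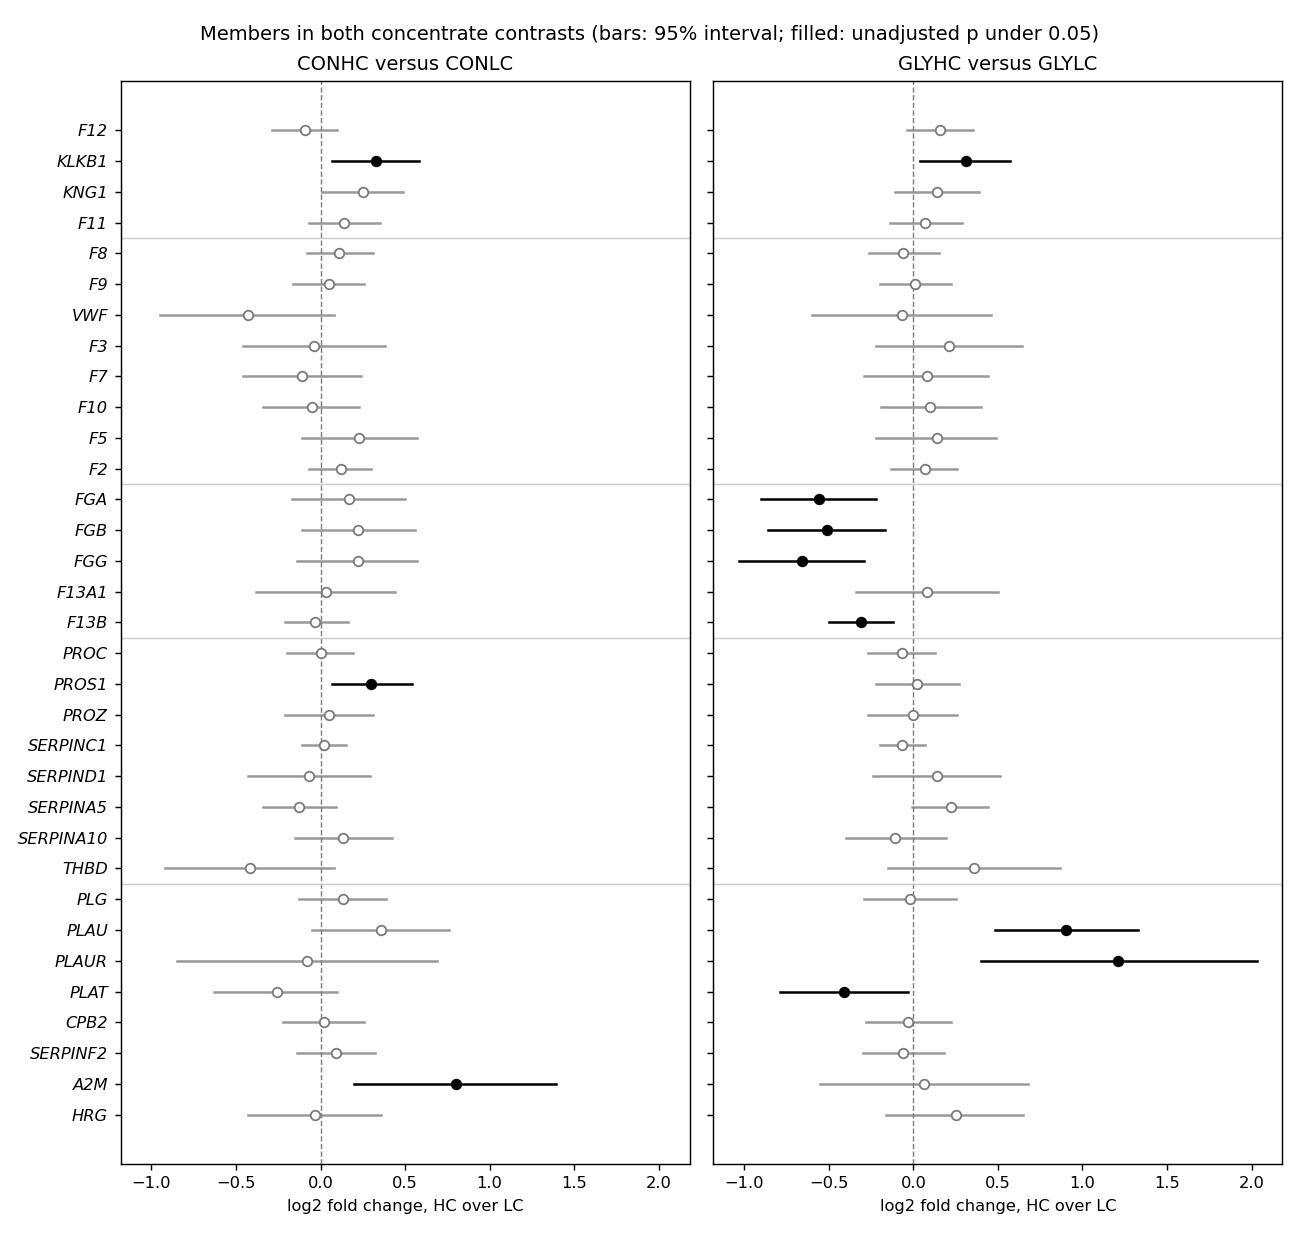
Log2 fold change of HC over LC for each of the 33 members, in CON cows on the left and in GLY cows on the right, grouped by role from the contact system at the top to fibrinolysis at the bottom. Bars are 95% intervals and filled points have an unadjusted edgeR p under 0.05, which 3 members reached in CON cows and 8 in GLY cows. The fibrinogen chains lie right of 0 on the left and left of 0 on the right.

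With HC and LC compared over all 31 cows, with treatment as a covariate, 1 member was called, against 1.45% of all tested genes. This was *PLAU*, and DESeq2 called *PLAU* and *KLKB1* (with 2.73% of all genes). At an unadjusted p under 0.05 stood 5 of 33 members (15.2%, against 13.7% of all genes), namely *KLKB1*, *KNG1* and *PLAU* with positive and *F13B* and *PLAT* with negative log2 fold changes (5.88% and 7.81% of all genes). The interaction, which is the log2 fold change of HC over LC in GLY cows minus that in CON cows, called no member and no gene (0%). At an unadjusted p under 0.05 the interaction held 7 of 33 members (21.2%, against 4.21% of all genes). *FGA*, *FGB*, *FGG* and *F13B* had negative and *THBD*, *PLAUR* and *SERPINA5* positive values, beside 2.31% and 1.9% of all genes. As *FGA*, *FGB* and *FGG* varied together over cows (Pearson's r of 0.90 to 0.95), the 7 members are not independent. With 1 cow left out the set held 4 to 8 members. It held 4 without CONHC cow 41 or 144, CONLC cow 169 or 260, GLYHC cow 131 or 159, or GLYLC cow 905, and *FGA*, *FGB* and *FGG* were in all 31 sets. Every interaction of a member had an edgeR adjusted p of at least 0.9985, and DESeq2 called none of them either (0.00628% of all genes).

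The 3 chains of fibrinogen, the precursor of fibrin, are encoded by *FGA*, *FGB* and *FGG*. Together they took between 3.17% and 6.33% of the assigned reads in CONHC, CONLC and GLYHC cows. In GLYLC they took between 3.47% (cow 544) and 12% (cow 912), with a median of 5.98%, against group medians of 4.34% to 4.48% elsewhere. GLYLC thus held both the widest range and the highest median share.

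*FGA* (ENSBTAG00000001638) had 188659 to 309820 normalized counts in CONHC (median 230407) and 186353 to 251734 in CONLC (median 212835). It had 162485 to 290208 in GLYHC (median 200524) and 159955 to 555711 in GLYLC (median 332097). All 8 GLYHC cows lay below the GLYLC median and 4 of the 7 GLYLC cows lay above every GLYHC cow, whereas GLYLC cow 544 lay below all of them. In CON cows the log2 fold change of HC over LC was 0.17 (SE 0.17), with an edgeR adjusted p of 0.984. In GLY cows it was -0.56 (SE 0.17), with an edgeR adjusted p of 0.194.

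*FGB* (ENSBTAG00000022120), the member with the most reads, had 374190 to 601874 normalized counts in CONHC (median 443020) and 333137 to 456043 in CONLC (median 392472). It had 266462 to 602778 in GLYHC (median 395747) and 306695 to 879311 in GLYLC (median 524917). One GLYHC cow, number 32, lay above the GLYLC median, and 2 GLYHC cows lay below the lowest GLYLC cow. In CON cows HC over LC was 0.22 (SE 0.17) on the log2 scale, and in GLY cows -0.51 (SE 0.18), with edgeR adjusted p-values of 0.946 and 0.227.

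*FGG* (ENSBTAG00000006745) had 222872 to 432358 normalized counts in CONHC (median 305682) and 217705 to 325196 in CONLC (median 265077). It had 197549 to 358277 in GLYHC (median 265664) and 215737 to 773333 in GLYLC (median 396525). No GLYHC cow reached the GLYLC median, and 4 of 7 GLYLC cows lay above every GLYHC cow. Log2 fold changes were 0.22 (SE 0.18) in CON cows and -0.66 (SE 0.19) in GLY cows, with edgeR adjusted p-values of 0.96 and 0.146. Without CONHC cow 144 the value in CON cows was 0.14. DESeq2 over all cows called *FGG* in GLY cows at an adjusted p of 0.0707, with 0.898% of all genes called.

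In each chain the highest value of all cows belonged to GLYLC cow 912, and the lowest GLYLC value to cow 544. Without cow 912 the highest GLYLC value of *FGG* was 496123, and the log2 fold changes of HC over LC in GLY cows were -0.37 for *FGA*, -0.37 for *FGB* and -0.45 for *FGG*, with unadjusted edgeR p-values of 0.022, 0.0315 and 0.0102. Without cow 544 they moved away from 0, and *FGA* (-0.68, edgeR adjusted p = 0.0607) and *FGG* (-0.77, edgeR adjusted p = 0.0556) were called. With all cows 0.201% of all genes were called in this contrast, and the share without cow 544 is not given here. The interaction of GLY with CFP was -0.73 (SE 0.24) for *FGA*, -0.74 (SE 0.24) for *FGB* and -0.88 (SE 0.26) for *FGG*, with unadjusted p-values of 0.00538, 0.00496 and 0.00207. None of these passed the adjustment. Cow 912 had the highest fibrinogen values of all cows beside the lowest hepatocyte marker sum. Its intestinal epithelium and lymphocyte marker sums were the highest of all cows. The part of these cell types in the difference was not tested.

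**Figure D2:**
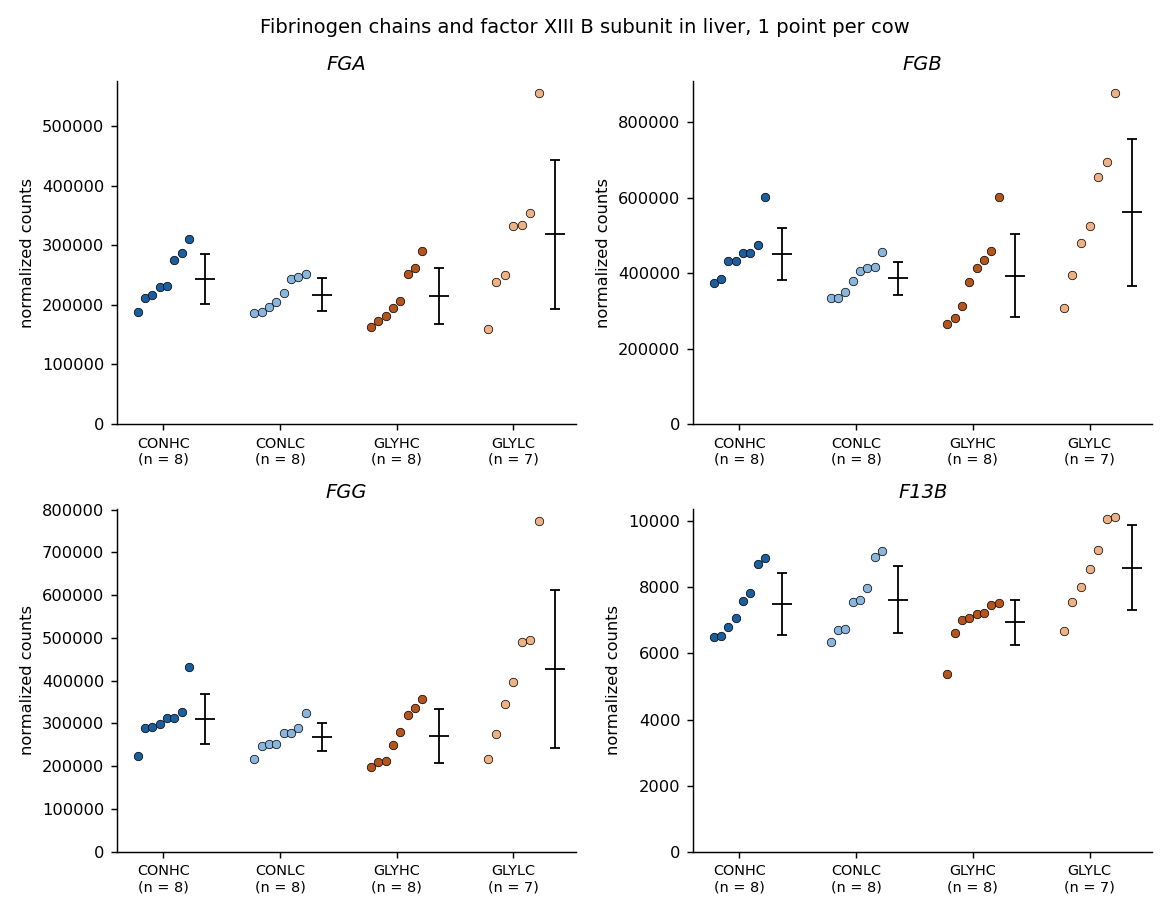
Normalized counts of *FGA*, *FGB*, *FGG* and *F13B* in each of the 31 cows, by feeding group, with each point 1 cow (drawn in ascending order within a group) and the bar beside it the mean with its SD. The highest points of the fibrinogen chains are GLYLC cow 912, at 555711 for *FGA*, 879311 for *FGB* and 773333 for *FGG*, and the lowest GLYLC points are cow 544.

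*F13B* (ENSBTAG00000000070), the carrier subunit of the fibrin-crosslinking factor XIII, had 6492 to 8904 normalized counts in CONHC (median 7336) and 6345 to 9100 in CONLC (median 7593). It had 5384 to 7542 in GLYHC (median 7128) and 6693 to 10143 in GLYLC (median 8564). In GLY cows 6 of the 7 LC cows lay above every HC cow, and the lone exception was cow 912 at 6693. HC over LC on the log2 scale was -0.03 (SE 0.09) in CON cows and -0.31 (SE 0.10) in GLY cows, with edgeR adjusted p-values of 1 and 0.205. Without cow 912 the value in GLY cows was -0.36 (edgeR adjusted p = 0.379). The catalytic A subunit, *F13A1* (ENSBTAG00000007268), known as a product of macrophages and platelets, had 28.4 to 94.5 normalized counts over all cows. Its log2 fold change was 0.03 (SE 0.21) in CON cows and 0.08 (SE 0.21) in GLY cows. At 27 to 128 reads per cow, differences of up to 0.50 in GLY cows lie within its 95% interval.

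*PLAU* (ENSBTAG00000005947) encodes urokinase, which turns plasminogen into plasmin. The study designed qRT-PCR primers for it, and they are shown because this was the one member that edgeR called with all cows. The qRT-PCR values were not analysed here.
PLAU forward: cttgccaccatgagggtcc
PLAU reverse: ccacagttcgattcaccagact

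*PLAU* had 197 to 354 normalized counts in CONHC (median 266) and 121 to 340 in CONLC (median 189). It had 168 to 483 in GLYHC (median 334) and 108 to 244 in GLYLC (median 169). All 8 CONHC cows lay above the CONLC median, and 5 of 8 GLYHC cows lay above every GLYLC cow. In CON cows the log2 fold change was 0.36 (SE 0.21), with an edgeR adjusted p of 0.879. In GLY cows it was 0.90 (SE 0.22), with an edgeR adjusted p of 0.1003, just over the threshold. Over all cows *PLAU* rose in HC by 0.62 (SE 0.16), or 1.54-fold, with an edgeR adjusted p of 0.0683. The effect in GLY cows was 0.55 (SE 0.30) above that in CON cows, with an unadjusted p of 0.0775, so that a difference between the contrasts was not shown.

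The call of *PLAU* was close to the threshold. Over all cows it was lost without CONHC cow 133, GLYHC cow 152 or GLYHC cow 159, with edgeR adjusted p-values of 0.104, 0.101 and 0.106. In GLY cows it was gained with RLE normalization (adjusted p = 0.0987), with DESeq2 (0.0347 over all cows, 0.0384 on the groups compared) and in edgeR without any one of 7 cows. Other settings did not call *PLAU* in GLY cows, with an adjusted p of up to 0.352. With 1 cow left out, its edgeR adjusted p ranged from 0.0544 to 0.379. GLYLC cow 912 had the lowest *PLAU* value of all cows, 108 normalized counts. The summed macrophage markers had medians of 21438, 19279, 22159 and 20143 normalized counts in CONHC, CONLC, GLYHC and GLYLC, with a range of 13663 to 32285 over all cows. Over all cows 5 of 9 macrophage markers had a positive and 1 a negative log2 fold change of HC over LC at an unadjusted p under 0.05, and their median was 0.31. GLYHC cow 117 had the highest value of *PLAU* and the highest macrophage sum. Within GLYHC it also had the highest endothelial (10123) and lymphocyte (1469) marker sums. The part of any of these cell types in the *PLAU* difference was not tested.

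*PLAUR* (ENSBTAG00000013125), the cell surface receptor of urokinase, had 6 to 59 reads per cow, the fewest of all members. It had 14.2 to 51.5 normalized counts in CONHC (median 24.1), 7.96 to 48.5 in CONLC (median 33.2), 7.33 to 65.3 in GLYHC (median 31.7) and 5.84 to 23.9 in GLYLC (median 14.9). In CON cows 3 LC cows lay below and none above the range of the HC cows, whereas 6 of 8 GLYHC cows lay above every GLYLC cow. Log2 fold changes were -0.08 (SE 0.39) in CON cows and 1.21 (SE 0.42) in GLY cows, with edgeR adjusted p-values of 1 and 0.231. The interaction was 1.30 (SE 0.57), with an unadjusted p of 0.0301.

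*PLAT* (ENSBTAG00000001244), the tissue plasminogen activator, had 82.4 to 141 normalized counts in CONHC (median 104) and 92 to 186 in CONLC (median 128). It had 50.5 to 121 in GLYHC (median 93.6) and 67.6 to 166 in GLYLC (median 122). In this activator the LC groups had the higher medians, opposite to *PLAU*. Log2 fold changes were -0.26 (SE 0.19) in CON cows, -0.41 (SE 0.19) in GLY cows and -0.34 (SE 0.13) over all cows, with edgeR adjusted p-values of 0.929, 0.373 and 0.241. Without CONLC cow 103 the value in CON cows was -0.17. This cow had both the highest *PLAT* value and the highest sum of stellate cell or fibroblast markers, and over all cows 7 of these 8 markers had a negative log2 fold change at an unadjusted p under 0.05, with a median of -0.86. The part of these cells in the *PLAT* values was not tested.

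*A2M* (ENSBTAG00000018137), the broad protease inhibitor alpha-2-macroglobulin, had 5886 to 12944 normalized counts in CONHC (median 8715) and 2368 to 8000 in CONLC (median 5692). It had 4435 to 15914 in GLYHC (median 7839) and 3902 to 20324 in GLYLC (median 7154). All 8 CONHC cows lay above the CONLC median, and in GLY cows the groups covered each other, with cow 912 at the top of GLYLC. The log2 fold change was 0.80 (SE 0.31) in CON cows and 0.06 (SE 0.31) in GLY cows, with edgeR adjusted p-values of 0.739 and 0.961. Without cow 912 the value in GLY cows was 0.42 and that over all cows went from 0.44 to 0.62, with edgeR adjusted p-values of 0.732 and 0.166. DESeq2 on only the groups compared called *A2M* in CON cows (adjusted p = 0.0611).

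**Figure D3:**
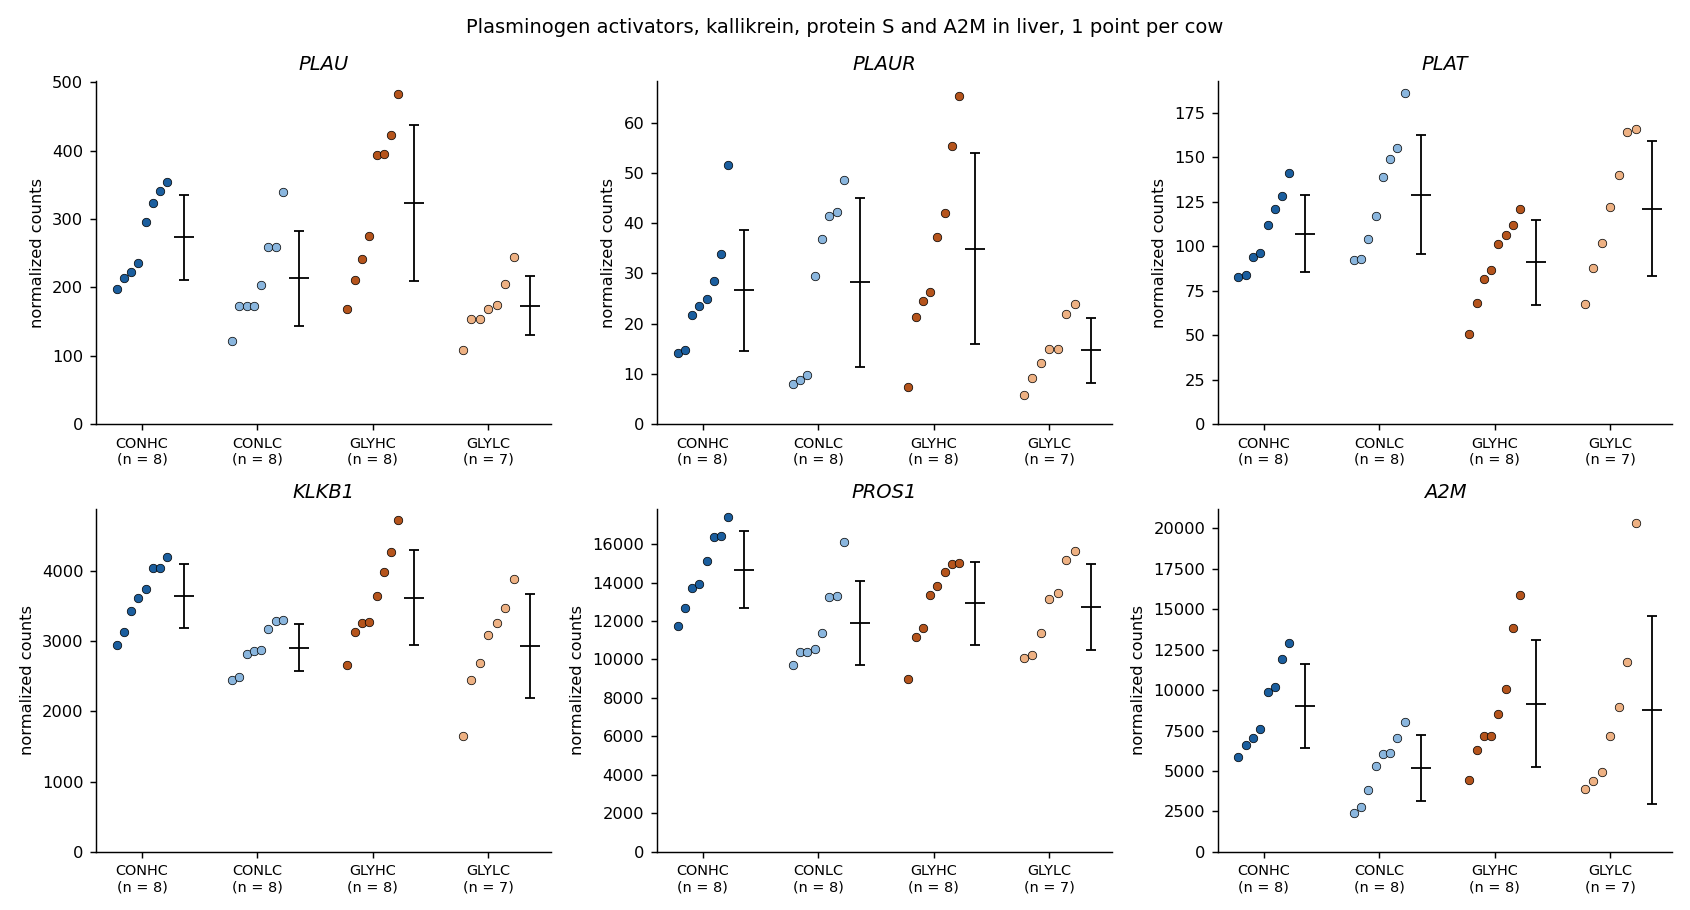
Normalized counts of *PLAU*, *PLAUR*, *PLAT*, *KLKB1*, *PROS1* and *A2M* in each cow by feeding group, with each point 1 cow (in ascending order within a group) and the bar beside it the mean with its SD. For *PLAU* the GLYLC cows reach at most 244 and 5 of the 8 GLYHC cows lie above that, and for *A2M* the single point at 20324 is GLYLC cow 912.

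Of the fibrinolysis genes not described so far, none had an unadjusted p under 0.05 in a contrast of HC with LC. *PLG* (ENSBTAG00000001271), the plasmin precursor, had group medians of 87197, 81449, 76080 and 78101 normalized counts in CONHC, CONLC, GLYHC and GLYLC. HC over LC was 0.13 (95% interval -0.13 to 0.39) in CON cows and -0.02 (-0.29 to 0.25) in GLY cows. *SERPINF2*, the main plasmin inhibitor, had 0.09 and -0.06, and *CPB2*, which protects fibrin from plasmin, had 0.02 and -0.03. *HRG*, a plasma glycoprotein that binds plasminogen, had -0.03 and 0.25. Its range in GLYLC was 15474 (cow 912) to 56825 normalized counts, beside 36237 to 51887 in GLYHC, and its value in GLY cows was 0.12 without cow 912 and 0.40 without cow 42.

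Among the contact system genes, *KLKB1* (ENSBTAG00000009501) encodes prekallikrein, the zymogen of plasma kallikrein, which releases bradykinin from kininogen. It had 2950 to 4201 normalized counts in CONHC (median 3675), 2453 to 3294 in CONLC (median 2867), 2666 to 4732 in GLYHC (median 3454) and 1650 to 3886 in GLYLC (median 3093). In CON cows 6 of 8 HC cows lay above every LC cow, and in GLY cows 3 of 8 did. The log2 fold change was 0.33 (SE 0.13) in CON cows and 0.31 (SE 0.13) in GLY cows, with edgeR adjusted p-values of 0.75 and 0.341. Over all cows it was 0.32 (SE 0.09), with an edgeR adjusted p of 0.102, and the interaction was -0.02 with a 95% interval of -0.38 to 0.34.

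*KLKB1* also lay close to the threshold. It was called over all cows with RLE normalization (adjusted p = 0.0963) and with DESeq2 (0.0416), and in edgeR without any one of 8 cows. DESeq2 on only the groups compared called it in CON cows (adjusted p = 0.0401). Cow 912 had the lowest value of all cows, and without it the value in GLY cows was 0.20 and that over all cows 0.27 (edgeR adjusted p = 0.665 and 0.129).

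*KNG1* (ENSBTAG00000005122), the precursor of kinins, had 112755 to 151917 normalized counts in CONHC (median 130605) and 96302 to 136389 in CONLC (median 108607). It had 110672 to 149770 in GLYHC (median 131520) and 56883 to 152155 in GLYLC (median 119761). All 8 CONHC cows lay above the CONLC median, and the lowest GLYLC value belonged to cow 912. Log2 fold changes were 0.25 (SE 0.12) in CON cows, 0.14 (SE 0.13) in GLY cows and 0.20 (SE 0.09) over all cows, with edgeR adjusted p-values of 0.828, 0.692 and 0.295. Without cow 912 the value in GLY cows was 0.02. *F11*, factor XI, had 0.14 and 0.07 in the CON and GLY contrasts, and *F12*, the contact factor that starts the pathway, had -0.09 (SE 0.10) and 0.16 (SE 0.10). For *F12* all 8 GLYHC cows (1866 to 2153 normalized counts) lay above the GLYLC median of 1822, while GLYLC itself spread from 1045 (cow 102) to 2290 (cow 209), and without cow 102 the value in GLY cows was 0.06.

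Among the anticoagulants, *PROS1* (ENSBTAG00000023652) encodes protein S, the cofactor of activated protein C. It had 11749 to 17415 normalized counts in CONHC (median 14519), 9730 to 16111 in CONLC (median 10960), 8966 to 15015 in GLYHC (median 13583) and 10052 to 15663 in GLYLC (median 13144). All 8 CONHC cows lay above the CONLC median, whereas the GLY groups covered each other. The log2 fold change was 0.30 (SE 0.12) in CON cows and 0.02 (SE 0.12) in GLY cows, with edgeR adjusted p-values of 0.75 and 0.964. The interaction was -0.28 (95% interval -0.62 to 0.06).

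*SERPINC1* (ENSBTAG00000004362), which encodes antithrombin, varied least of all members over the 31 cows. Its highest value was 1.35 times its lowest, beside 11.2 times for *PLAUR*, 8.58 times for *A2M* and 3.91 times for *FGG*. Group medians were 82769 normalized counts in CONHC, 80651 in CONLC, 77843 in GLYHC and 84473 in GLYLC. On the log2 scale HC over LC was 0.02 (95% interval -0.11 to 0.15) in CON cows and -0.07 (-0.20 to 0.07) in GLY cows. These were the narrowest intervals among the members.

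*THBD* (ENSBTAG00000002758), thrombomodulin, had 17 to 178 reads per cow and the fewest reads of the anticoagulants. It had medians of 43.1 normalized counts in CONHC, 59.9 in CONLC, 58.2 in GLYHC and 42.7 in GLYLC, and all 8 GLYHC cows lay above the GLYLC median. Its log2 fold change was -0.42 (SE 0.25) in CON cows and 0.36 (SE 0.26) in GLY cows, with edgeR adjusted p-values of 0.893 and 0.609, and its interaction was 0.78 (SE 0.36, unadjusted p = 0.0405). Without CONLC cow 260 the value in CON cows was -0.19 and the interaction 0.54, which no longer had an unadjusted p under 0.05. Endothelial cells are the known source of thrombomodulin. Their summed markers ranged from 5724 to 10424 normalized counts over all cows. The median of the log2 fold changes of the 8 single markers was -0.05 in CON cows and 0.02 in GLY cows. The part of endothelial cells in the *THBD* values was not tested. *SERPINA5*, the protein C inhibitor, had -0.13 (SE 0.11) and 0.22 (SE 0.11) in the contrasts, with an interaction of 0.35 (SE 0.16, unadjusted p = 0.0368). Cow 912 had its lowest value of all cows, 12476 normalized counts, and without it the value in GLY cows was 0.11 and the interaction 0.24, also with an unadjusted p above 0.05. *PROC*, *PROZ*, *SERPIND1* and *SERPINA10* had log2 fold changes between -0.11 and 0.14 in both contrasts, with edgeR adjusted p-values of at least 0.818.

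The 8 factors of the intrinsic, extrinsic and common pathways had no member at an unadjusted p under 0.05 in any contrast. *F2* (ENSBTAG00000007148), prothrombin, had the most reads among them, with medians of 35800 normalized counts in CONHC, 32622 in CONLC, 37273 in GLYHC and 36667 in GLYLC. On the log2 scale HC over LC was 0.12 (95% interval -0.07 to 0.30) in CON cows and 0.07 (-0.13 to 0.26) in GLY cows. *F3* (ENSBTAG00000007101), tissue factor, had only 9 to 95 reads per cow. HC over LC was -0.04 (95% interval -0.46 to 0.38) in CON cows and 0.21 (-0.22 to 0.64) in GLY cows.

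The vitamin K-dependent *F7*, *F9* and *F10* had log2 fold changes between -0.11 and 0.10, and the cofactors *F5* and *F8* between -0.06 and 0.23. Von Willebrand factor, *VWF*, the carrier of factor VIII, had -0.43 (SE 0.26) in CON cows and -0.07 (SE 0.27) in GLY cows. CONLC cow 166 had its highest value, 496 normalized counts, against at most 258 in the other groups. Without this cow the value in CON cows was -0.10. The same cow had the highest endothelial marker sum of CONLC, 10066. The sums of GLYLC cow 544 (10424) and GLYHC cow 117 (10123) were higher, with *VWF* at 258 and 211 normalized counts. The part of endothelial cells in the *VWF* value was not tested.

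In HC cows, no member was called between GLYHC and CONHC by edgeR or by DESeq2 over all cows, and neither was any of the 15916 genes (0%). None of the 33 members had an unadjusted edgeR p under 0.05, against 2.92% of all genes, and their log2 fold changes lay between -0.24 (*PLAT*) and 0.36 (*PLAUR*). DESeq2 on only these groups put 1 member, *F12*, under an unadjusted p of 0.05.

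In LC cows, no member was called between GLYLC and CONLC by edgeR (0.0628% of all genes) or DESeq2 over all cows (0.0251%), and 5 of 33 members had an unadjusted p under 0.05 (15.2%, against 5.65% of all genes). Of these 4 had positive and 1 a negative value, beside 3.71% and 1.94% of all genes. The fibrinogen chains among them varied together over cows, so the 5 members are not independent. The fibrinogen chains had log2 fold changes of GLY over CON of 0.55 (SE 0.17) for *FGA*, 0.54 (SE 0.18) for *FGB* and 0.68 (SE 0.19) for *FGG*, with edgeR adjusted p-values of 0.447, 0.456 and 0.307. *A2M* had 0.76 (SE 0.31) and *PLAUR* -0.93 (SE 0.41), with edgeR adjusted p-values of 0.786 and 0.823. Without cow 912 the chains had 0.36, 0.40 and 0.47, and *A2M* had 0.40. Without cow 544 *FGG* was called at 0.79 (edgeR adjusted p = 0.0664), and the share of all genes called in that fit is not given here. This contrast shares the GLYLC cows with that of GLYHC and GLYLC, so that the values are not independent of those given above. Over all cows with CFP as a covariate, GLY against CON called no member by edgeR (0% of all genes) or DESeq2 (0.00628%), and no member had an unadjusted p under 0.05, against 3.92% of all genes.

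Of 35 further genes of the pathway (vitamin K cycle and export, other inhibitors, receptors), 31 were tested. With all cows edgeR called none of them in any contrast, where at most 1.45% of all genes were called. DESeq2 over all cows called *MCFD2* in GLY cows (-0.32, adjusted p = 0.098), with 0.898% of all genes called. It also called *THBS1* for HC versus LC over all cows (-0.60, adjusted p = 0.0879), with 2.73% of all genes. DESeq2 on only the groups compared called *MCFD2* in GLYHC versus CONHC (-0.30, adjusted p = 0.0962), with 0.0334% of all genes called. In edgeR, *THBS1* was called over all cows without CONLC cow 259 or 260, and *ITGAM* without CONLC cow 260. At an unadjusted edgeR p under 0.05 stood 0 of 31 in CON cows (against 5.96% of all genes) and 4 of 31 in GLY cows (12.9%, against 12.5%). In GLY cows *ITGAM* and *TGM2* had positive and *MCFD2* and *THBS1* negative log2 fold changes. *MCFD2*, a part of the receptor that exports factors V and VIII from the endoplasmic reticulum, had medians of 3969 normalized counts in CONHC, 3458 in CONLC, 3245 in GLYHC and 4099 in GLYLC. Its log2 fold change was 0.17 (SE 0.09) in CON cows and -0.32 (SE 0.09) in GLY cows, and its interaction was -0.48 (SE 0.13) with an unadjusted p of 0.00083 and an edgeR adjusted p of 0.999. As for the fibrinogen chains, the GLYLC median was the highest and the CONHC median the next. *ITGAM*, an integrin chain of myeloid cells that binds fibrinogen, had 0.17 (SE 0.20) in CON and 0.65 (SE 0.21) in GLY cows (edgeR adjusted p = 0.989 and 0.21). *THBS1*, thrombospondin, had -0.60 (SE 0.20) over all cows (edgeR adjusted p = 0.145).

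How the members varied together was described over the 31 cows after the mean of each feeding group had been removed from log2 CPM. Over all 528 pairs of members the median of Pearson's r was 0.02, with a range of -0.70 to 0.95. Of the planned pairs, 8 in number, *FGA* with *FGG* had r = 0.94 and rho = 0.93, *FGB* with *FGG* r = 0.95 and rho = 0.93, and *FGA* with *FGB* r = 0.90 and rho = 0.87. Each had a permutation p of 1.00e-05, the smallest that 100000 resamples can give, and a BH adjusted p of 2.67e-05 over the planned pairs. Within the feeding groups r lay between 0.70 and 0.99 for these pairs. Without the 2 cows farthest from the median of the first-named gene, r over all groups lay between 0.83 and 0.93. In each pair below, the 2 farthest cows were likewise taken on the first-named gene only.

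*PLAU* and its receptor *PLAUR* had r = 0.71 and rho = 0.69 (permutation p = 3.00e-05 and 4.00e-05, adjusted 6.00e-05 and 8.00e-05), and r = 0.60 without the 2 farthest cows. Within CONHC, CONLC, GLYHC and GLYLC r was 0.63, 0.73, 0.89 and 0.28. *PLG* and the plasmin inhibitor *SERPINF2* had r = 0.63 and rho = 0.57 (permutation p = 0.00017 and 0.00125, adjusted 0.000272 and 0.002), and r = 0.46 without the 2 farthest cows. *F8* with *VWF* (r = 0.25, rho = 0.21, permutation p = 0.173 and 0.248, adjusted 0.198 and 0.308) and *F12* with *KLKB1* (r = 0.04, rho = -0.09, permutation p = 0.832 and 0.623, adjusted likewise 0.832 and 0.623) were not shown to vary together. *VWF* with *THBD* had r = 0.37 and rho = 0.20 (permutation p = 0.0444 and 0.27, adjusted 0.0592 and 0.308), and r was 0.04 without the 2 farthest cows, so that it rests on those.

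Several members are neighbours with no protein-coding gene between them in the RefSeq gene order of assembly ARS-UCD2.0. Besides *FGB*, *FGA* and *FGG*, these are *F7*, *F10* and *PROZ*, then *KLKB1* and *F11*, and *KNG1* and *HRG*. The 4 neighbour pairs outside the fibrinogen genes were chosen after the data were seen, and their adjusted p-values are over all 12 pairs. *F7* with *F10* had r = 0.95 and rho = 0.89 (permutation p = 1.00e-05 for both, adjusted 2.40e-05), with 0.87 without the 2 farthest cows and 0.89 to 0.98 within the groups. *F10* with *PROZ* had r = 0.79 and rho = 0.62 (permutation p = 1.00e-05 and 0.00031, adjusted 2.40e-05 and 0.000531), and *KLKB1* with *F11* r = 0.72 and rho = 0.69 (permutation p = 2.00e-05 and 1.00e-05, adjusted 4.00e-05 and 2.40e-05). Without the 2 farthest cows their r was 0.56 and 0.57. *KNG1* with *HRG* had r = 0.42 and rho = 0.14 (permutation p = 0.0231 and 0.442, adjusted 0.0308 and 0.482), and r was 0.08 without the 2 farthest cows, so that it rests on those.

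High values of r were also seen between members that are not neighbours. *F10* and *F7* had r = 0.89 and 0.85 with *SERPIND1*, and *F12* had 0.82 with it. *F5* had r = 0.91 with *SERPINA10*. The lowest values were those of *SERPINA5* with *FGG* (-0.70) and *FGA* (-0.64), and of *PLAU* with *SERPINA10* (-0.64). These are the extremes among all 528 pairs, given as a description with no test. GLYLC cow 102 had the lowest value of all cows for *F12*, *F7*, *F10*, *F2* and *SERPIND1*, and CONLC cow 145 the highest for *F7*, *F10* and *SERPIND1*. In the negative pairs, GLYLC cow 912 had the highest value of all cows for *FGA*, *FGB*, *FGG* and *SERPINA10*. It had the lowest for *SERPINA5* and *PLAU*, and r without this cow is not given here.

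**Figure D4:**
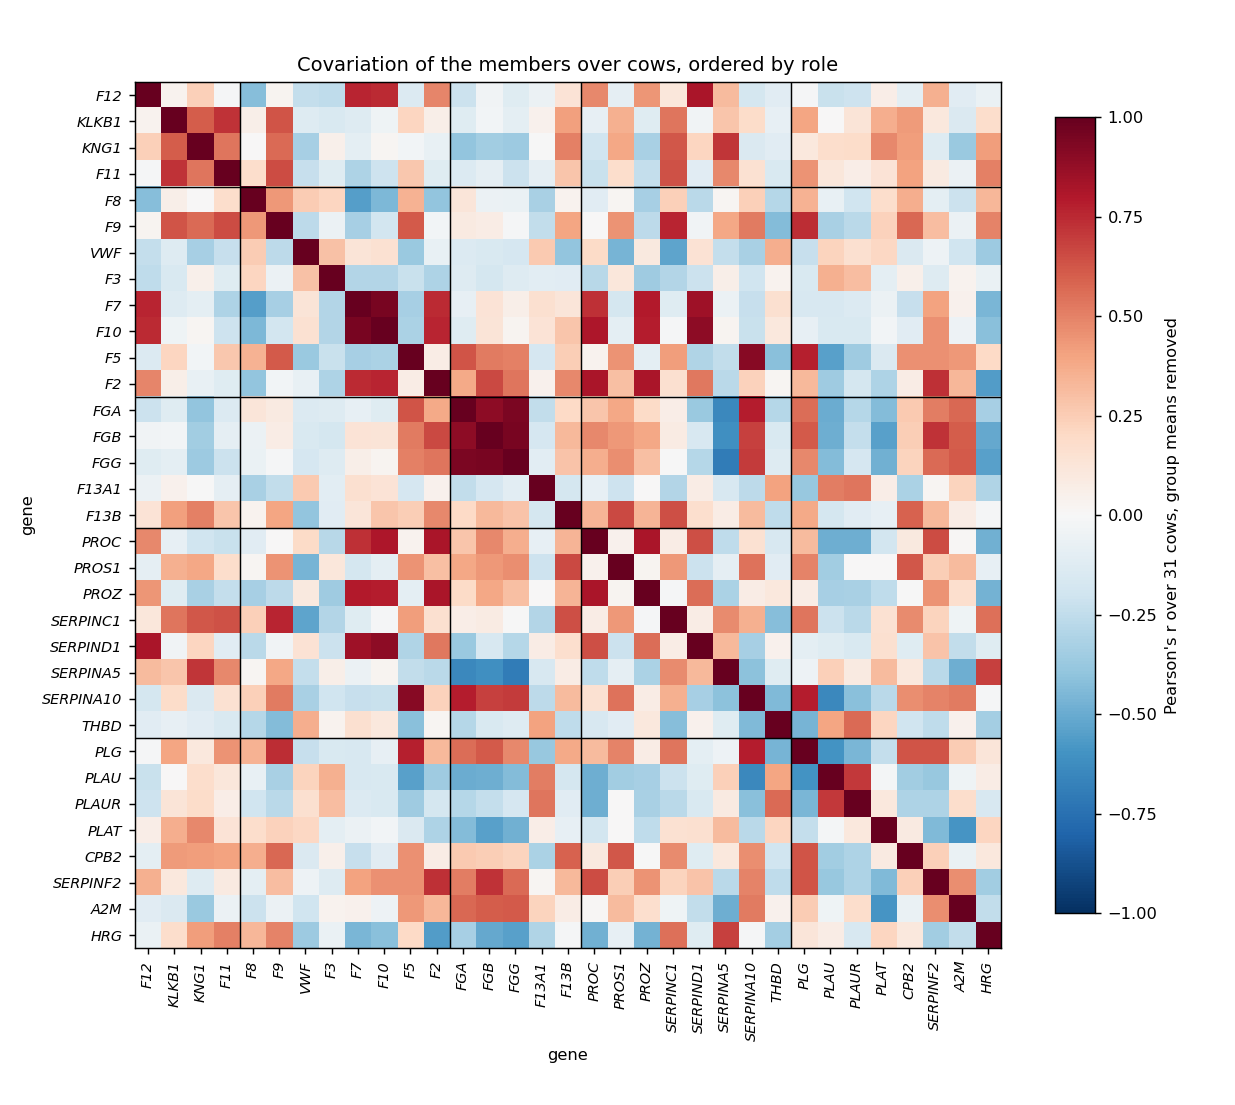
Pearson's r for every pair of the 33 members over 31 cows, with group means removed from log2 CPM, red for positive and blue for negative values. Genes are in the same order on both axes, and black lines separate the contact system, the factors, fibrin, the anticoagulants and fibrinolysis. The dark red blocks are the fibrinogen chains (0.90 to 0.95) and *F7* with *F10* (0.95), and the blue band is *SERPINA5* against the fibrinogen chains, down to -0.70. GLYLC cow 912 had the lowest *SERPINA5* value and the highest fibrinogen values of all cows.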

How the data were processed

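Per the labels and the study's methods, FastQC and Trim Galore came first, HISAT2 2.1.0 aligned the reads to UMD3.1, and HTSeq 0.8.0 counted unique reads per gene. The authors deposited these raw counts, which were used here (31 cows, all columns mapped by label). Libraries came from a stranded mRNA kit, and whether HTSeq counted by strand is not given in the sources used here. The deposited normalized table was not used. Genes with at least 20 summed reads were fitted in R 4.3.3 with edgeR 4.0.16 (TMM, quasi-likelihood F test), and a standard error is the absolute log2 fold change over the root of F. Correlations used log2 CPM with a prior count of 2 and two-sided permutation tests (Python 3.11.15, scipy 1.17.1). DESeq2 1.42.0 and other settings were alternatives. The steps were tested on simulated data.

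The members and lists were chosen with earlier results of these data known. Described in depth were members called or at an unadjusted p under 0.05 for HC versus LC, and those with the most and fewest reads in each role. Further pathway genes were named when called or among the 2 smallest p-values of a contrast, here only where a result is described. Of these, 1 had no matching symbol and 3 were not tested. Marker lists were those of hepatocytes, endothelium, macrophages, lymphocytes, neutrophils, stellate cells or fibroblasts, bile duct, platelets, erythrocytes, intestinal epithelium and epidermis.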

Additional observations from a re-analysis of the deposited data

Results flagged for a closer look

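Within a feeding group, a cow was set apart when its gap to the nearest cow, as a share of the range of the group, passed Dixon's limit. This happened in 9 of 132 sets of cows (33 genes in 4 groups), and chance alone sets apart about 1 in 20.

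Low values in GLYLC belonged to cow 912 for *F11* (3126 normalized counts, nearest cow 4978), *F9* (17635, nearest 25310) and *SERPINC1* (66041, nearest 78589), and to cow 102 for *F7* (293, nearest 785). In GLYHC cow 131 was low for *F13B* (5384, nearest 6615) and *PROZ* (1048, nearest 1818). In CONLC cow 103 was low for *F12* (1511, nearest 1892) and cow 145 high for *F2* (40576, nearest 33671). In CONHC cow 144 was high for *FGB* (601874, nearest 473734).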

How the results depend on the processing

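No paired analysis was possible because the replicate numbers are animal numbers and no number occurs in more than 1 feeding group. Apart from fits with 1 cow left out, 500 of 508 values of 69 log2 fold changes kept their direction and their side of the threshold, 8 came to be called and 0 changed sign. With 1 cow left out, 2061 of 2139 values kept both, 18 came to be called, 3 lost a call and 57 changed sign.

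DESeq2 on only the groups compared called 2 members in CON cows and 1 in GLY cows, where edgeR called 0. In GLY cows RLE normalization called 1 and DESeq2 over all cows 2. Over all cows HC versus LC called 0 members at an adjusted p under 0.05, and 2 with RLE normalization or DESeq2, against 1. At an unadjusted p under 0.05, 5 members stood in CON cows when edgeR or DESeq2 was fitted to only the groups compared, against 3, and 1 (*F12*) in GLYHC versus CONHC, against 0. The correlation of *KNG1* with *HRG* fell to 0.08 without the 2 farthest cows. The cause of these differences was not tested.

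With 1 cow left out, members called ranged from 0 to 3 in GLY cows, 0 to 2 over all cows and 0 to 1 in GLYLC versus CONLC. The shares of all genes called in these fits are not given here, so the counts are not set against them. *PLAU* in GLY cows (log2 fold change at least 0.80) was called without CONLC cow 259 or 260, GLYHC cow 37, or GLYLC cow 102, 147, 209 or 544. *PLAU* over all cows (0.56 to 0.69) lost its call without CONHC cow 133 or GLYHC cow 152 or 159. *KLKB1* over all cows (0.27 to 0.35) was called without CONHC cow 123 or 208, CONLC cow 169, GLYHC cow 159, or GLYLC cow 102, 147, 209 or 544. Without GLYLC cow 544 *FGA* and *FGG* were called in GLY cows (ranges -0.68 to -0.37 and -0.77 to -0.45) and *FGG* in GLYLC versus CONLC (0.47 to 0.79). Members at an unadjusted p under 0.05 ranged from 3 to 5 in CON cows (5 without CONHC cow 134 or CONLC cow 60), 4 to 8 for the interaction and 0 to 1 in GLYHC versus CONHC (1 without GLYLC cow 102).

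Values near 0 changed sign. In CON cows these were *F13B* (-0.06 to 0.02), *PLAUR* (-0.29 to 0.07), *F3* (-0.16 to 0.05), *F13A1* (-0.05 to 0.13) and *SERPINC1* (-0.01 to 0.05). In GLY cows they were *PROS1* (-0.03 to 0.09), *A2M* (-0.09 to 0.42), *F13A1* (-0.02 to 0.24) and *PLG* (-0.13 to 0.04). In GLYLC versus CONLC they were *KLKB1* (-0.07 to 0.12) and *PLAT* (-0.18 to 0.02), and for the interaction *KLKB1* (-0.13 to 0.07). Depth limits *PLAUR*, *F3*, *THBD* and *F13A1*, which had at most 178 reads in a cow.

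Over all genes, edgeR called 0 in CON cows, 32 in GLY cows, 10 in GLYLC versus CONLC and 231 for HC versus LC over all cows. DESeq2 over all cows called 27, 143, 4 and 434, and on only the groups compared 81 in CON cows, 87 in GLY cows, 5 in GLYHC versus CONHC and 2 in GLYLC versus CONLC, where edgeR called 0 in each. In GLY cows the count was 66 with RLE normalization, 23 with no filter on low counts, 11 with a stricter one, 8 with a robust fit and 7 at an adjusted p under 0.05. Over all cows it was 134 with no filter and 55 at an adjusted p under 0.05, and in GLYLC versus CONLC 0 with the stricter filter, the robust fit or an adjusted p under 0.05.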
